A study of Mus musculus with 4 samples.

Results

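AMPA and NMDA receptors are the glutamate-gated ion channels that carry most fast excitatory transmission in the brain. The subunits considered here were Gria1 to Gria4, which form AMPA receptors, and Grin1 and Grin2a to Grin2d, which form NMDA receptors. Members were the probe sets whose single gene symbol in the platform annotation is 1 of these 9 names. They numbered 12 probe sets for 8 genes, of 12422 probe sets and 8251 genes with 1 symbol in all. No probe set carried Grin1 as its single symbol, so the subunit shared by all NMDA receptors was not analysed here. Each probe set combines the signals of several short oligonucleotides designed against a single transcript.

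The study measured total RNA from the CA1 hippocampus of young male C57BL/6J mice 1, 2, 4 and 6 h after foot shock. In all groups the mice were in the chamber for 2 h before training. Training gave 3 shocks of 0.5 mA, each of 1 s, at intervals of 2 min. The groups differ, per the labels, only in the hour of RNA extraction, and each hour has 1 array, 4 in all. The labels do not give the number of animals behind a sample, and the condition is named shock alone. Unshocked animals were not analysed here, and comparisons are between hours. With 1 array per hour, hour and array cannot be told apart, no test was possible, and precision is limited by how few arrays there are.

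Values are linear intensities, scaled to 1 common level per array. A floor of 100.8 units, the 40th percentile of all values, marks where readings become too dim to compare. Probe sets differ in how well they bind, so a reading is compared only with the same probe set at another hour. RNA came from whole tissue, where fewer cells of a type and less RNA per cell cannot be told apart.

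AMPA receptors are assembled from 4 kinds of subunit. GluA1 and GluA2, encoded by Gria1 and Gria2, are the main ones in CA1 pyramidal neurons, and GluA2 also pairs with GluA3, encoded by Gria3. RNA editing of the Gria2 transcript makes channels that contain GluA2 nearly impermeable to calcium, and the insertion of AMPA receptors into synapses underlies long-term potentiation, a model of memory. NMDA receptors combine the Grin1 product with GluN2 subunits and admit calcium only when glutamate binds while the cell is depolarised. Grin2a and Grin2b encode the main GluN2 subunits of the adult forebrain, Grin2c is best known from cerebellar granule cells and is also found in astrocytes, and Gria4 and Grin2d are found in interneurons.

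Of the 4 genes with probe sets above the floor, Gria2 and Grin2c have a promoter entry in the RefSeq table of build GRCm38.p6. The 250 bases before the start site are shown for these 2, the AMPA subunit whose probe sets were the least alike over the hours and the NMDA subunit that was measured. Both lie on the minus strand, at chr3:80802836-80803085 for Gria2 and chr11:115267244-115267493 for Grin2c. Capitals mark the GC box read by the factor Sp1 (GGGCGG, searched on both strands).
Gria2: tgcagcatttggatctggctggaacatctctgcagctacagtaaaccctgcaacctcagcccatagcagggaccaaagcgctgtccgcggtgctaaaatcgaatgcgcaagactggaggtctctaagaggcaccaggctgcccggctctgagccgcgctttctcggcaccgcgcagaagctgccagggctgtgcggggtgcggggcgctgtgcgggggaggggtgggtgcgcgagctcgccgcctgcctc
Grin2c: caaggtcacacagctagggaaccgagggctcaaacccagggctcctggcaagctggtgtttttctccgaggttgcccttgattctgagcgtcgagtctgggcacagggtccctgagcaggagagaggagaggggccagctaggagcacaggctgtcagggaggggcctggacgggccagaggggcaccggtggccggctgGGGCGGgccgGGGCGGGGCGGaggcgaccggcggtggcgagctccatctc
The Grin2c window holds 3 GC boxes, which end 44, 34 and 29 bases before the start site, the last 2 sharing 1 base. The Gria2 window holds none, and 32.7% of 32851 promoter windows of this length hold at least 1. Motifs of factors that neuronal activity induces or activates were searched on both strands too. These were the cyclic AMP response element (TGACGTCA, in 1.55% of windows) and the core that lies within it (TGACG, in 17.8%), the Egr1 site (GCGTGGGCG, in 0.536%) and the AP-1 site (TGANTCA, in 6.75%). None of them has a match in either window, nor has the Nrf1 site, found in 0.782%. The GC content is 64.8% for Gria2 and 68.8% for Grin2c, and 52.4% in the median promoter.

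Gria1, the subunit most tied to activity-dependent insertion of receptors, was highest at 4 h and lowest at 6 h on both of its probe sets. The brighter, 92943_at, read 6301, 6691, 7722 and 5553 at 1, 2, 4 and 6 h. The second, 92944_at, read 782, 904, 959 and 617 at the same hours. Both thus had the same order over the 4 arrays, with 6 h below 1 h and 1 h below 2 h. The log2 difference of 6 h over 4 h was −0.48 and −0.64, and that of 4 h over 1 h was 0.29 on each. The 2 probe sets read 1 RNA sample per hour and are not replicates.

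Gria3 had the same extremes. Its probe set 97793_at read 380, 366, 444 and 296 over the 4 hours. The log2 difference of 6 h over 4 h was −0.59, and the values at 1 h and 2 h lay between these extremes, within 1.04-fold of each other.

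Gria2 was read by 3 probe sets above the floor, which did not share an order. The plain probe set 92945_at read 1365, 1413, 1587 and 1427 at 1, 2, 4 and 6 h, highest at 4 h and lowest at 1 h. The probe set 92947_s_at read 11351, 11736, 10844 and 10642, and was the steadiest of the 7 subunit probe sets, with a log2 difference of −0.14 between its extremes, 6 h over 2 h. The probe set 92946_f_at read 787, 977, 839 and 601, highest at 2 h and lowest at 6 h, and spanned 1.63-fold. In this naming, s and f mark probes that also match similar transcripts or a sequence family. At 6 h over 4 h the 3 had log2 differences of −0.15, −0.03 and −0.48, so all were lower at 6 h, by amounts from 1.02-fold to 1.40-fold. The fourth, 162076_r_at, was below the floor on all 4 arrays, between 2.90 and 12.3.

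**Figure D1:**
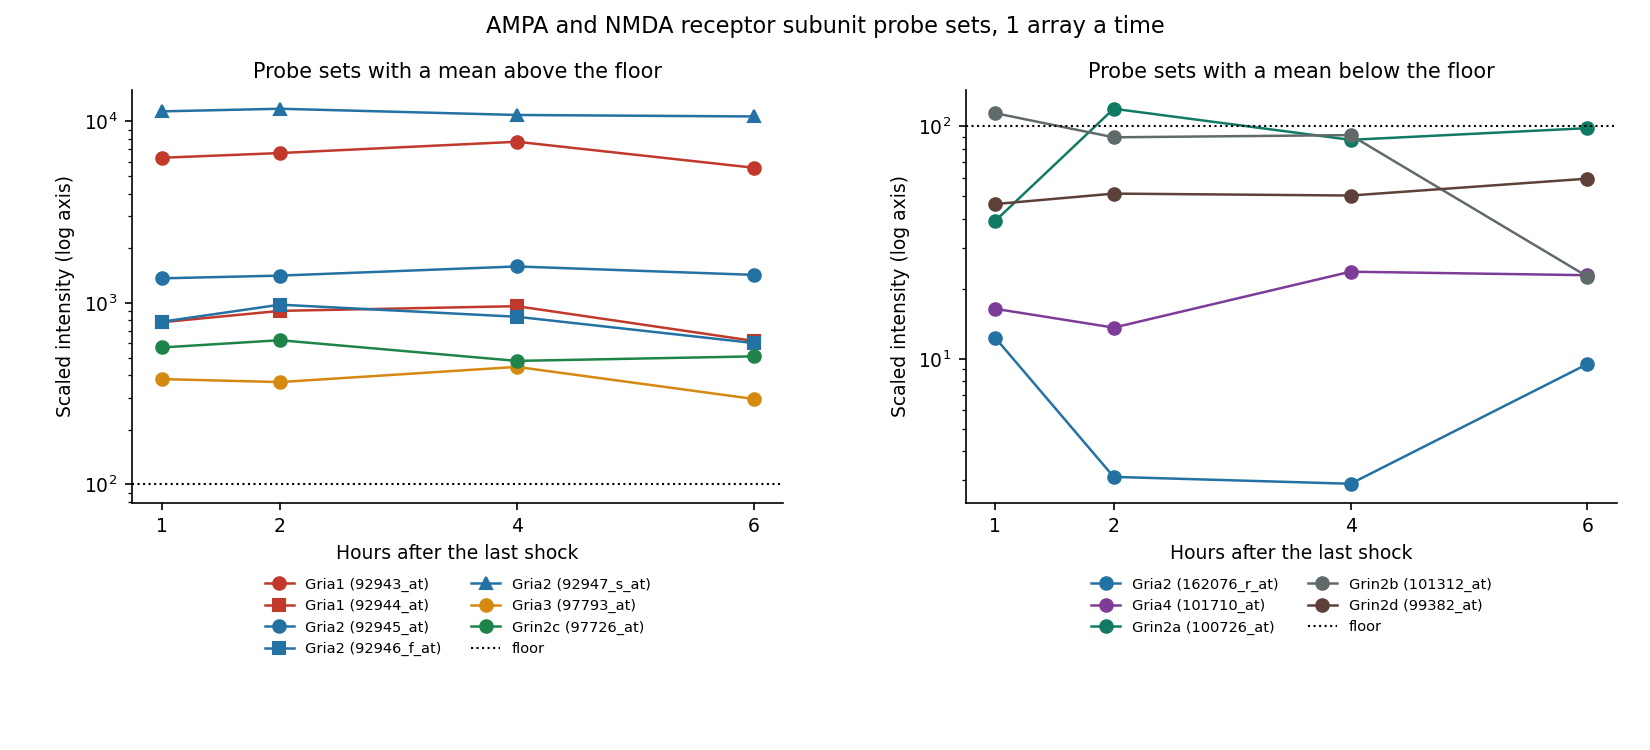
Scaled intensity of the 12 subunit probe sets (log axis) against hours after the last shock, 1 point per array. The 7 probe sets on the left lie above the floor (dotted, 100.8) at each hour, and both Gria1 probe sets and that of Gria3 are highest at 4 h and lowest at 6 h, while the 5 on the right have a mean below the floor.

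Grin2c was the only NMDA subunit gene with a probe set above the floor, and its course differed from that of Gria1 and Gria3. Its probe set read 568, 623, 479 and 507 over the 4 hours. It was thus lowest at 4 h, where Gria1 and Gria3 were highest, with a log2 difference of −0.38 for 4 h over 2 h and 0.08 for 6 h over 4 h. Across 7 astrocyte marker genes on the array, all 7 with a mean above the floor, the summed intensity was 23120, 23433, 20873 and 21410. The brightest of them, Aldoc, read 12167, 12926, 10636 and 11382 and was the 1 marker of 7 that was both highest at 2 h and lowest at 4 h, as Grin2c was. At 4 h over 2 h, 3 of the 7 markers were higher and 4 lower, with a median of −0.07. The part of these cells in the Grin2c values was not tested.

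The other subunits were too dim to give a course. Grin2a read 39.2, 119, 87.5 and 98.2 at 1, 2, 4 and 6 h, above the floor only at 2 h. Grin2b read 114, 89.7, 91.7 and 22.6, above it only at 1 h. Gria4, between 13.6 and 23.7, and Grin2d, between 46.3 and 59.5, were below it on all 4 arrays. For these 4 genes a reading below the floor is a bound and does not show that the transcript is absent.

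**Figure D2:**
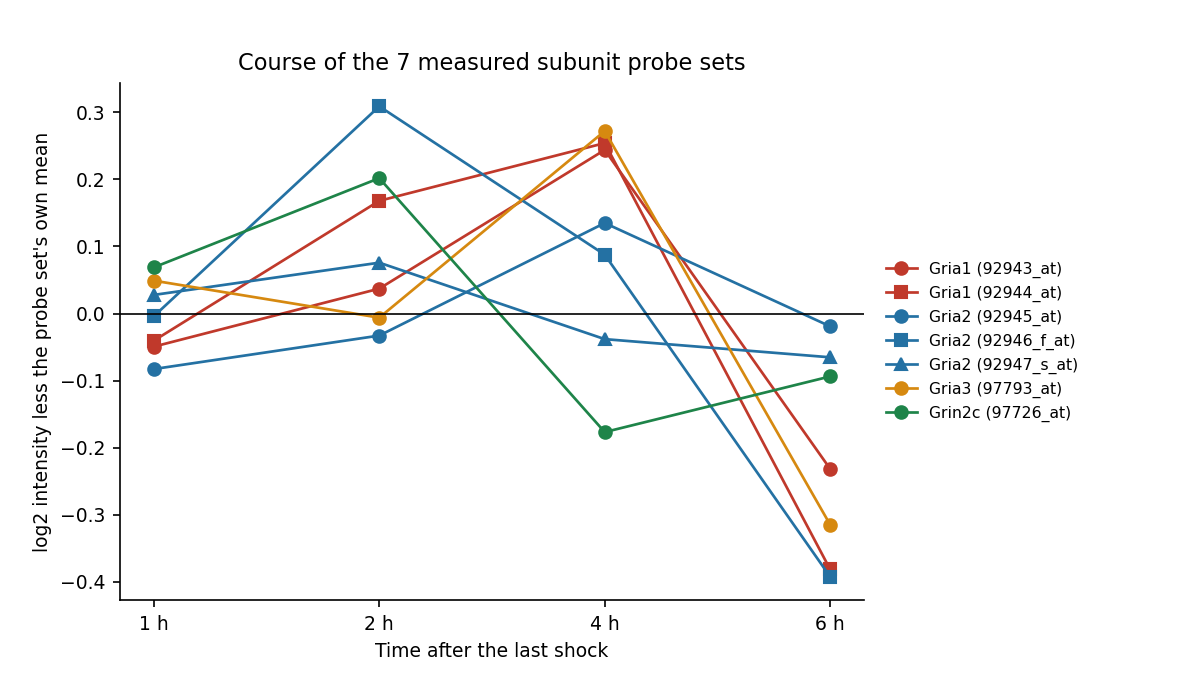
Log2 intensity of each of the 7 measured subunit probe sets less its own mean over the 4 arrays, by hour, with 1 point per array. The lines of Gria1 (2 probe sets) and Gria3 peak together at 4 h, at 0.24 to 0.27, and are at −0.23 to −0.38 at 6 h, while Grin2c is lowest at 4 h, at −0.18.

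Of the 6 pairs of hours, the median difference over the 7 subunit probe sets was farthest from 0 at 6 h over 4 h. Of the 7 measured probe sets, 6 had a lower value at 6 h, against 4 h, and Grin2c a higher one, where 50.3% of all probe sets above the floor on both arrays were lower. By at least 1.5-fold, 2 were lower, the second of Gria1 and that of Gria3, against a background of 4.12% of 6791 probe sets (3.93% were higher), and of the 6 bright subunit probe sets (averaging 500 or more, which leaves out Gria3) 1 was lower by that much, beside 1.41% of all bright ones. The Gria3 value lies at the limit, a log2 difference of −0.59, and under common-median scaling, where it was −0.57, Gria1 alone passed. The median log2 difference of the 7 was −0.48, against 0.00 over all 7427 probe sets with a mean above the floor. The robust SD of that difference over single probe sets was 0.26, and both Gria1 values, that of Gria3 and 1 of 3 of Gria2 were farther from 0 than this. Taking the brightest probe set of each of the 4 genes gave a median of −0.25, since Gria2 was then read by the steady 92947_s_at, and on that measure 6 h over 2 h was farther from 0, at −0.28.

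At 6 h the array also carried transcripts of the choroid plexus, a tissue next to the hippocampus. Ttr, which encodes transthyretin, read 111, 89.9, 198 and 4482 over the 4 hours. The 4 choroid plexus markers on the array, of 8 listed, summed to 430, 424, 717 and 5345, and 3 of them had a mean above the floor. Markers of CA1 pyramidal neurons, 6 on the array of 10 listed and 5 above the floor, were present at every hour and summed to 8445, 8964, 10362 and 9867. At 6 h over 4 h they had a median of −0.18, with 3 lower and 2 higher, and 11 interneuron markers had a median of −0.13. Thalamic markers, with 4 measured, had −0.26, all lower. Endothelial markers, with 5, had −0.33 (1 higher, 3 lower), and only 3 of them were above the floor on both arrays. Oligodendrocyte markers, with 7, had a median of 0.15 (5 higher, 2 lower), 6 microglia markers had 0.03 and 7 astrocyte markers had 0.01. Markers differed between earlier hours too. At 4 h over 1 h the median was 0.32 for CA1 pyramidal markers (3 higher, 2 lower) and 0.44 for thalamic ones (3 higher, 1 lower). In the same pair it was 0.08 for oligodendrocyte, −0.06 for interneuron, −0.07 for microglia and −0.13 for astrocyte markers, beside −0.01 over all genes. The parts of tissue composition and of these cells in the subunit values were not tested. Controls that read opposite ends of 1 transcript, 3′ over 5′, had ratios for actin of 1.84, 2.70, 1.79 and 1.74 at 1, 2, 4 and 6 h, and for Gapdh of 3.98, 4.82, 3.85 and 3.24. In both, 2 h was highest and 6 h lowest. Between 4 h and 6 h the actin ratios were close, while those of Gapdh were 3.85 and 3.24.

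**Figure D3:**
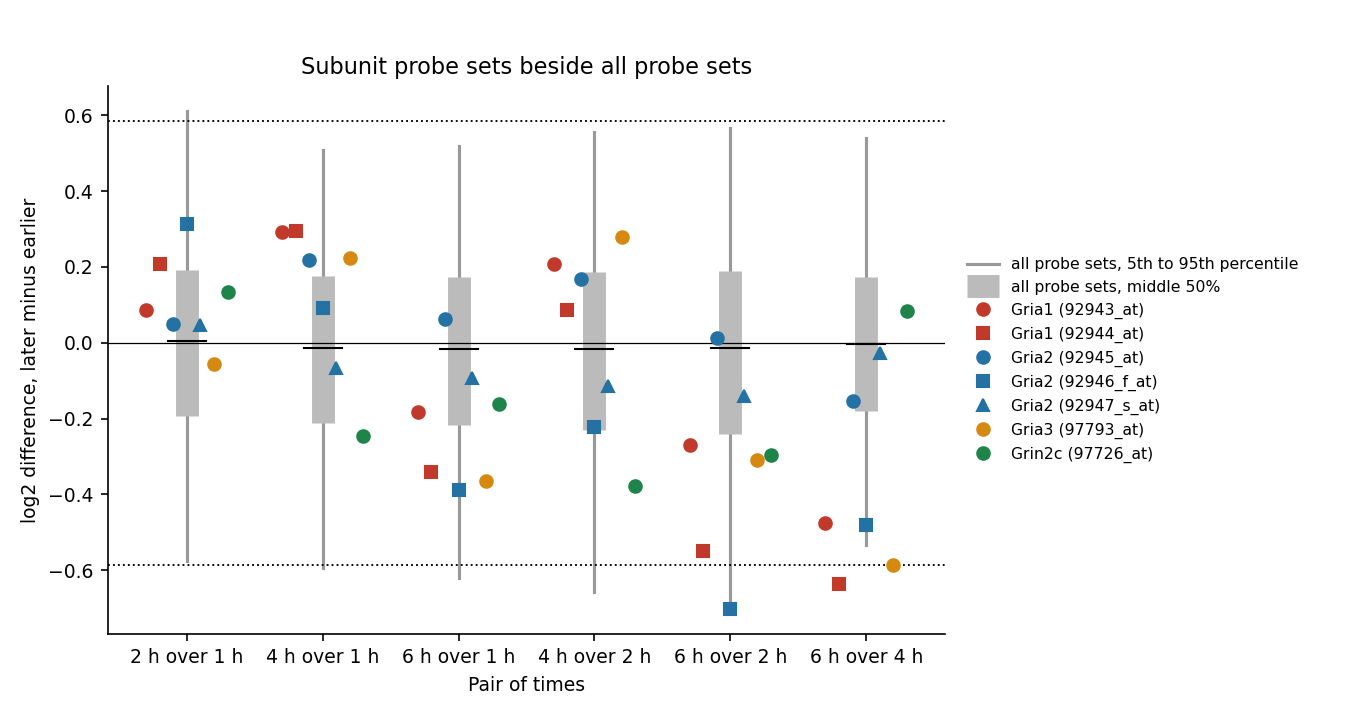
Log2 difference, later minus earlier, of the 7 measured subunit probe sets (coloured points) for 6 pairs of hours, beside the middle 50% (grey box), the 5th to 95th percentile (grey line) and the median (black bar) of all probe sets above the floor on both arrays. Dotted lines mark 1.5-fold, and at 6 h over 4 h the points of Gria1, Gria3 and 1 of Gria2 lie between −0.48 and −0.64.

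Differences between the earlier hours were smaller. At 2 h over 1 h, 6 of 7 were higher, beside 50.5% of all, with a median of 0.09 against 0.00. Of the 7, 0 passed 1.5-fold in either direction, where 5.59% of all probe sets were higher and 4.84% lower by that much (4.82% and 5.43% under common-median scaling). At 4 h over 1 h, 5 were higher, beside 48.2%, with a median of 0.22 against −0.01. Again 0 passed, beside 3.38% higher and 5.33% lower of all (4.71% and 4.21% under that scaling). At 4 h over 2 h, 4 were higher, beside 47.7%, and 3 lower, with a median of 0.09 and 0 past the limit, beside 4.46% and 6.95% (6.74% and 4.85%).

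At 6 h the subunits were also mostly below 1 h and 2 h. Over 1 h, 6 of 7 were lower, beside 52.2%, with a median of −0.18 against −0.02 for all probe sets. None passed 1.5-fold, beside 3.76% higher and 5.82% lower (5.31% and 4.29% under common-median scaling). Over 2 h, 6 of 7 were lower, again beside 52.2%, with a median of −0.30, and 92946_f_at of Gria2 passed the limit at 1.63-fold, beside 4.59% higher and 7.12% lower (7.55% and 5.20%, and this probe set did not pass there). These comparisons share the 6 h array, so they do not stand for separate observations.

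Over the 4 arrays together, 3 of the 7 probe sets were highest at 4 h and lowest at 6 h, the pattern of 6.58% of the 6442 probe sets above the floor on all arrays and of 6.62% of the bright ones. In all, 4 were highest at 4 h, beside 23.1%, and 5 were lowest at 6 h, beside 26.2%. This way of counting was chosen after the values were seen. The highest value was at least 1.5-fold above the lowest for 3 of 7, beside 27.9% of all and 12.4% of bright probe sets. The median of that ratio was 1.39 for the subunits, 1.32 for all and 1.24 for bright probe sets. Without the 6 h array, 0 of 7 had a 1.5-fold span. Leaving out an array can only narrow a span, and the share of all probe sets without that array was not computed. No subunit had an hour that differed from the rest, one by one and in 1 direction, by 1.5-fold, which 6.3% of probe sets did.

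A list of kainate, delta and related receptor genes was set beside the subunits. Of 10 listed, 5 were on the array and 3 had a mean above the floor, of which 2, Grid1 and Grik5, encode receptor subunits. At 6 h over 4 h the values of all 3 were higher, beside 48.6% of 5671 genes, with a median of 0.35 against 0.00, and 0 passed 1.5-fold, beside 3.6% of genes above the floor on both arrays. Grid1, a delta receptor subunit, read 419, 363, 389 and 551 at 1, 2, 4 and 6 h. Grik5, which encodes a kainate receptor subunit, read 372, 294, 311 and 398, and its second probe set, near the floor, 73.2, 102, 101 and 129. Grina, which encodes a membrane protein named for its association with NMDA receptors and not a channel subunit, read 6321, 5350, 5823 and 7011, and its second probe set 1924, 1646, 1667 and 1957. The brightest probe set of each of the 3 genes was lowest at 2 h and highest at 6 h, while the second of Grik5 was lowest at 1 h. Grik1 and the 1 metabotropic receptor gene on the array, Grm8, were below the floor at each hour.

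Proteins that travel with AMPA receptors showed no common direction. Of 9 measured genes for auxiliary, editing and clustering proteins, 4 stood higher at 6 h over 4 h, beside 48.6% of genes, and 5 lower, the median being 0.00. Nptx1, a neuronal pentraxin that clusters AMPA receptors, was the 1 gene past 1.5-fold, where 3.6% of genes were higher by that much, at 764, 644, 506 and 845 from 1 to 6 h. Nptx2, a related pentraxin that activity induces, read 361, 269, 322 and 384. Cacng2, which encodes the auxiliary subunit stargazin, read 768, 900, 754 and 752. Adarb1, an enzyme that edits the Gria2 transcript, read 1315, 1184, 1366 and 1138 on one probe set and 854, 991, 740 and 858 on the other, which differed in direction.

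Among 12 measured scaffold and trafficking genes, 5 stood higher at 6 h over 4 h, beside 48.6% of genes, and 7 lower. The median was −0.02, and 1 gene was lower by at least 1.5-fold, beside 3.83% of genes. That gene was Pick1, which encodes a binding partner of GluA2, at 224, 352, 394 and 239, although another probe set of the gene had 229 at 6 h against 208 at 4 h. Dlg4, the scaffold PSD-95, read 669, 507, 851 and 610, and was like Gria1 and Gria3 highest at 4 h, but lowest at 2 h. Nsf, an ATPase that binds GluA2 and keeps receptors at the synapse, read 8125, 8905, 8774 and 6092. Lin7c, a small scaffold protein that binds PDZ partners of the receptor complex, read 1710, 1891, 2163 and 1498, highest at 4 h and lowest at 6 h. The genes named so far are all among the 7 lower ones. The 5 higher genes had log2 differences of 0.44 (Lin7b), 0.26 (Dlg1), 0.18 (Kif5b), 0.12 (Homer3) and 0.07 (Homer2).

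**Figure D4:**
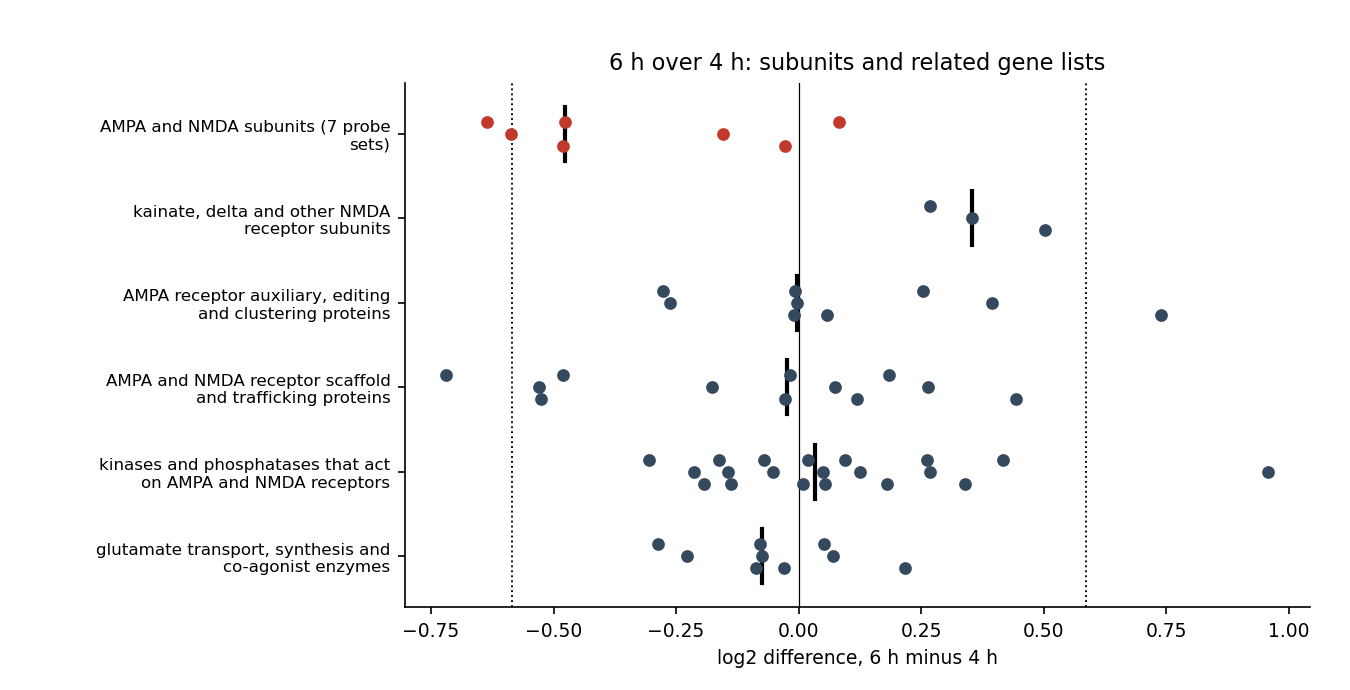
Log2 difference of 6 h minus 4 h for the 7 subunit probe sets (red) and for measured genes of 5 lists of related genes (dark points, 1 probe set per gene), with the median of each row as a black bar and 1.5-fold as dotted lines. The subunits have a median of −0.48 and the kainate, delta and related genes 0.35, while the other 4 lists lie between −0.08 and 0.03. With the brightest probe set of each of the 4 measured subunit genes, as in the lists, the subunit median is −0.25.

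Kinases and phosphatases that act on the receptors, listed together with some of their regulators, did not share a course. Of 20 measured, 12 stood higher at 6 h over 4 h, beside 48.6% of genes, and 8 lower, the median being 0.03. Src, a tyrosine kinase that acts on NMDA receptors, was the 1 gene past 1.5-fold. This was of 19 above the floor on both arrays, beside 3.6% of genes. It read 208, 103, 103 and 199 over the 4 hours, with the values at 2 h and 4 h just above the floor, and once the floor was raised to the 60th percentile 0 genes of the list passed. Prkca, a protein kinase C, read 284, 408, 540 and 466 and exceeded its 1 h value 1.91-fold at 4 h. Genes of glutamate transport, synthesis and co-agonists had a median of −0.08 over 9 measured genes at 6 h over 4 h. Of these, 3 were higher, beside 48.6% of genes, and 6 lower. Past 1.5-fold were 0 of the 8 above the floor on both arrays, beside 3.6% of genes higher and 3.83% lower. Dao, which degrades the co-agonist D-serine, read 28.5, 248, 103 and 91.2, below the floor at 1 h and 6 h and just above it at 4 h. Slc1a6, a glutamate transporter, read 171, 152, 246 and 233.

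Genes with the nearest course were found for the 3 subunit probe sets with the widest span, by the root mean square difference of log2 values, each less its own mean, over the 4 arrays and 5837 candidate probe sets. Nearest to the second Gria1 probe set were Akap9, an anchoring protein for protein kinase A, at 0.017, Cdc25a, a cell cycle phosphatase, at 0.031 and Bad, a regulator of cell death, at 0.038. Nearest to Gria3 were Sorl1, a sorting receptor, at 0.0096, Rnf103, a ubiquitin ligase, at 0.015 and Rere, a transcriptional corepressor, at 0.026. Nearest to 92946_f_at of Gria2 were Rrp1b at 0.030, the actin regulator Flii at 0.039 and the matrix protein Smoc1 at 0.039. With 4 arrays many genes have a similar course, and the values only describe these samples.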

How the data were processed

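The deposited table holds intensity values, which the authors had already scaled, since 12488 probe sets trimmed by 2% from both tails average 500.3 units for every array. Their software is not given in the sources used here. Probe sets were named from the platform annotation, and all 12 member probe sets were found by gene identifier in RefSeq. Each array was scaled to the same trimmed mean over 12422 probe sets other than 66 controls, and lower readings were raised to a floor of 100.8 (the 40th percentile) before taking log2. Measured means a mean intensity above the floor. Calls used 1.5-fold among probe sets above the floor on both arrays, with no test, since each hour has 1 array. For the lists, the brightest probe set stood for a gene. The genes named were all members, genes from the 3 per list with the widest span, and the 3 nearest to each of 3 members. Cacng2, Adarb1, Nsf, Lin7c and the astrocyte marker Aldoc are exceptions picked with their values in view. The 5 scaffold and trafficking genes that were higher at 6 h over 4 h were also added, all of them. Adar, Homer1, Cdk5r1 and Glul were also among the 3 widest of their lists and are not described above. Their log2 differences at 6 h over 4 h were 0.39, −0.18, 0.18 and 0.22, that of Cdk5r1 against a 4 h value below the floor. Members and lists were chosen with earlier results of these data known. A comparison of protein sequences was planned and not run. Steps were tested on simulated arrays. Alternatives were other scalings, floors, fold limits, summaries per gene and arrays left out. Tools were NumPy 2.4.6 and pandas 2.3.3 under Python 3.11.15, with figures from matplotlib 3.10.9.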

Additional observations from a re-analysis of the deposited data

How the results depend on the processing

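The median log2 difference of the subunits kept its sign in each of the 6 pairs of hours under the 9 alternatives tried. At 6 h over 4 h it ran from −0.48 to −0.25. At 4 h over 1 h it ran from 0.08 to 0.28. At 4 h over 2 h it fell as low as 0.002, against 0.09, so the sign there rests on almost no difference. Counts past the limit, which are small, moved more. Scaling to a common median, which shifted the median of all probe sets at 6 h over 2 h to 0.10, against −0.01, left 1 subunit lower at 6 h than at 4 h in place of 2, and 0 in place of 1 at 6 h over 2 h, and 1 in place of 3 with a span of 1.5-fold. One probe set per gene gave 1 at 6 h over 4 h and 0 at 6 h over 2 h. Where 125% of the other value sufficed, there were 4 lower at 6 h over 4 h, 3 over 1 h, 2 over 2 h, 1 at 4 h over 2 h, 2 apart below the other hours at 6 h, and 5 with that span. A limit of 2-fold gave 0 for the counts that were above 0. With the floor at the 20th percentile, 30.5 units, Grin2a, Grin2b and Grin2d counted as measured, and 1 was higher at 2 h, 4 h and 6 h over 1 h, and 1 apart below at 1 h. With 1 array left out, 0 (without 6 h) to 3 probe sets (without 1 h) had the span, and 1 without 4 h. Shares of all probe sets were not computed for these other fold limits, floors and left-out arrays, so the counts have no background beside them. The count with the highest value at 4 h and the lowest at 6 h was 3 under each of 5 other settings. How far a value moved was judged against the robust SD between arrays, for want of replicates, and 445 of 465 other settings of the main results stayed within that or within 1.5 times a count. That SD is over single probe sets, 0.26 at 6 h over 4 h, which is a loose limit for a median. The move from −0.48 to −0.25 lay within it, and counts of 0 that stayed 0 were included. The tally therefore does not show that the values are stable. No paired analysis was possible because each hour has 1 array. Dim subunits (Gria4, Grin2a, Grin2b and Grin2d) are limited by signal over background.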
